A study of Mus musculus with 10 samples.

Results

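The mouse mitochondrial genome encodes 37 genes, and all of them were present in the deposited expression table of 36066 genes. They were selected by name alone, as the symbols that begin with mt-, and comprised 13 protein-coding genes (mRNAs), 2 ribosomal RNA genes (rRNAs) and 22 transfer RNA genes (tRNAs). Every gene of the table that the GENCODE M21 annotation of GRCm38 places on chromosome M was among them. Expression was measured by RNA-seq in 10 libraries of C57BL6 mouse cells, 2 in each of 5 groups. ESC were female embryonic stem cells from fertilized embryos, and pESC were parthenogenetic stem cells from activated oocytes, which carry maternal chromosomes alone. They are called the ESC line and the parthenogenetic line below. According to the study's methods both lines carried an Actin-GFP transgene. ESC-PGCLC and pESC-PGCLC were primordial germ cell-like cells induced from these lines, 2 days as epiblast-like cells and then 4 days with BMP4 at 500 ng/ml, SCF, EGF and LIF, and were sorted as SSEA1+ and CD61+ cells. PGC were primordial germ cells, for which the labels give no embryonic day. The labels name a line of each origin without a further line to compare, so origin and cell line cannot be told apart.

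Mitochondrial DNA is transcribed from both strands into long precursor RNAs. Most tRNA genes lie between the other genes, and their excision frees the mRNAs and rRNAs. The proteins it encodes are core subunits of respiratory chain complexes I, III and IV and of the ATP synthase, complex V, while all other subunits, the ribosomal proteins and the transcription machinery are imported products of nuclear genes. In the female germ line these genomes pass to the offspring through the oocyte. Most mitochondrial mRNAs carry short poly(A) tails and mature tRNAs carry none. The study's methods name a Smart-seq2 protocol, which primes on poly(A), whereas the labels name another library kit, so which RNAs were primed is uncertain. Reads on a tRNA gene can come from mature tRNA or from longer precursor RNA, and these cannot be told apart here. Of the 37 genes, 28 lie on the plus strand of the reference (12 mRNAs, both rRNAs and 14 tRNAs) and 9 on the minus strand (mt-Nd6 and 8 tRNAs). Whether reads were counted by strand was not given in the sources used here, so RNA from the opposite strand of a gene cannot be told apart from its own RNA.

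The tRNA genes are 59 to 75 nt long, shorter than a sequenced read, and were therefore kept apart from the mRNAs and rRNAs. The sequences below are GENCODE M21 transcripts of GRCm38, written 5′ to 3′ with the anticodon in capitals. They are those of the 5 tRNAs around mt-Nd2 with the largest changes upon differentiation and of mt-Ty, their next neighbour, which changed by less than 2-fold there.
mt-Tq: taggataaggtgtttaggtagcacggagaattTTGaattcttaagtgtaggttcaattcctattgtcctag
mt-Tw: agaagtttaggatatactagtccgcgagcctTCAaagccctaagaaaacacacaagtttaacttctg
mt-Ta: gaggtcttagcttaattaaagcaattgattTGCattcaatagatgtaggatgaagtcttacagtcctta
mt-Tn: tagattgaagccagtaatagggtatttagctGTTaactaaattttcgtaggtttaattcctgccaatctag
mt-Tc: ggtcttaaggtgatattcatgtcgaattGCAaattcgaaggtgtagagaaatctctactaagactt
mt-Ty: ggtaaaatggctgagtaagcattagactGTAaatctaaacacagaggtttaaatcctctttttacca
The next set is the block of 3 tRNAs between mt-Nd4 and mt-Nd5 (chrM:11546-11741, plus strand), which held the largest called differences between the PGCLCs of both origins.
mt-Th: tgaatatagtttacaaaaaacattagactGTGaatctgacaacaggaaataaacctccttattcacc
mt-Ts2: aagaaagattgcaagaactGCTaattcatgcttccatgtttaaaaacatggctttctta
mt-Tl2: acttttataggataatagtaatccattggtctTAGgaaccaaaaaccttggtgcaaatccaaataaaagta
The last set holds the tRNAs of highest mean TPM besides mt-Ty, both coded on the minus strand.
mt-Ts1: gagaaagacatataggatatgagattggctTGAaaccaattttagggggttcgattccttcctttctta
mt-Te: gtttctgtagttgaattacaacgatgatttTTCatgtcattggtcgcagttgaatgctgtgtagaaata

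Values were in TPM, reads divided by gene length and scaled so that they sum to 1000000 in each library. From the TPM and exon lengths, whole reads could be recovered for 95.1 to 95.4% of values (within 0.05 of a whole number), and summed to 6779838 to 18572901 reads on genes per library, the 2 ESC-PGCLC libraries being the shallowest. The mitochondrial genes held 617896 to 1729950 of these reads, so their precision was limited by the number of libraries and not by counting, except for the scarcest tRNAs. Germ cell markers summed to 5668 to 8005 TPM in the PGCLC and PGC libraries against 408 to 932 TPM in stem cells, and stem cell markers to 134 to 220 against 621 to 1011 TPM. Markers of blood cells also moved with the groups: their 9 genes summed to at most 4.15 TPM in stem cells, 492 to 562 in ESC-PGCLC, 2901 to 3438 in pESC-PGCLC and 1989 to 2200 in PGC, while Alas2 and Ptprc stayed under 1 TPM everywhere. The 7 markers of gonadal somatic cells summed to 4.03 to 4.83, 34.9 to 39.4, 68.6 to 74.2 and 137 to 138 TPM in stem cells, ESC-PGCLC, pESC-PGCLC and PGC, and the 6 fibroblast markers to at most 0.388, 3.98, 7.68 and 10.5 TPM. Their part in the results on mitochondrial genes was not tested. In bulk samples fewer cells of a type and less RNA per cell cannot be told apart.

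The mitochondrial genes took a larger share of TPM in germ cells than in stem cells. Together they held 15.7% and 15.7% in the ESC libraries (replicate 1 first, here and below), 13.2% and 16.9% in pESC, 21.1% and 21.2% in ESC-PGCLC, 18.8% and 21.9% in pESC-PGCLC, and 20.2% and 21.6% in PGC. All 6 germ cell libraries thus lay above all 4 stem cell libraries. The kinds of gene behind that share differed. The 13 mRNAs held 12.3% and 12.4% in ESC, 9.95% and 13.2% in pESC, 14.8% and 13.98% in ESC-PGCLC and 13.2% and 16.1% in pESC-PGCLC, but 9.88% and 11.8% in PGC, below both ESC libraries. The 22 tRNAs held 2.89% and 2.98% in ESC, 2.996% and 3.38% in pESC, 5.54% and 6.26% in ESC-PGCLC, 5.07% and 5.13% in pESC-PGCLC, and 9.53% and 9.13% in PGC. For the tRNAs the 3 levels, stem cells, PGCLC and PGC, did not overlap. The 2 rRNAs held 0.245 to 0.440% in stem cells and 0.524 to 0.991% in germ cells. The shares are a description and were not tested, and between any pair of groups, with 2 libraries each, a two-sided exact permutation test could not go below 0.3333.

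**Figure D1:**
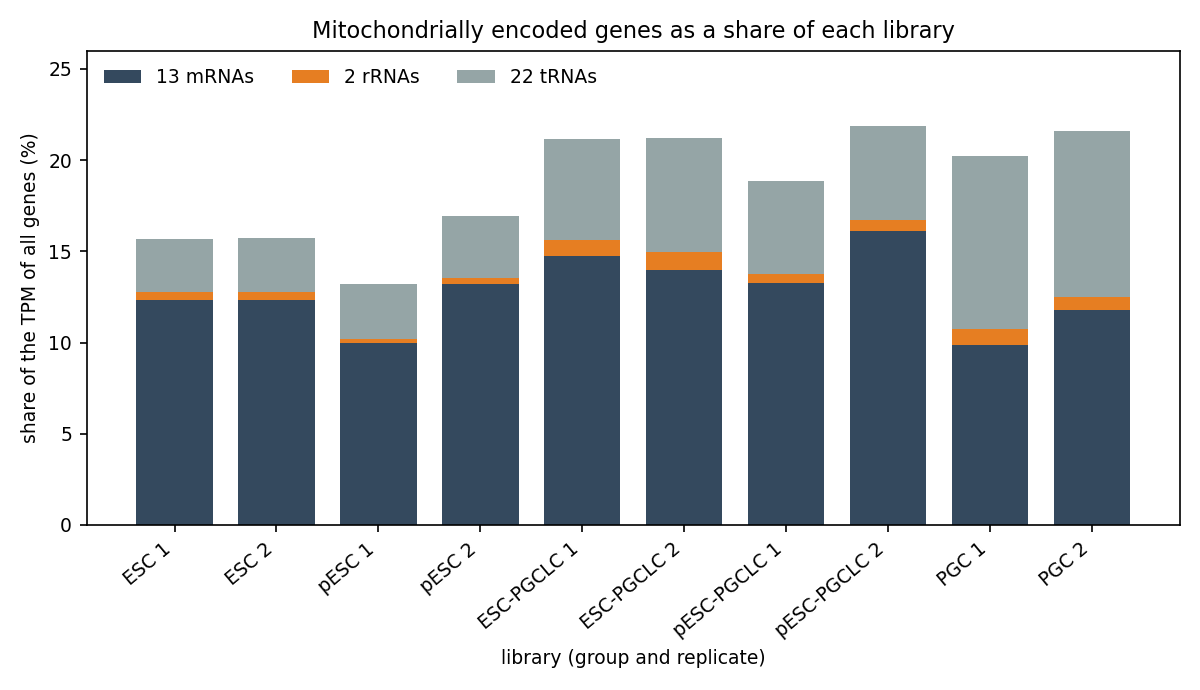
Stacked bars show, for each of the 10 libraries, the summed TPM of the 13 mRNAs, 2 rRNAs and 22 tRNAs of the mitochondrial genome as a percentage of the TPM of all genes (y axis). The bars of the 6 germ cell libraries (18.8 to 21.9%) stand above those of the 4 stem cell libraries (13.2 to 16.9%), and the tRNA segment is tallest in PGC (9.53% and 9.13%).

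TPM weights short genes heavily, so the tRNA share depends on the unit. As a share of recovered reads, which are not divided by length, the tRNAs held 0.126 to 0.375% per library, with group means of 0.128% in ESC, 0.152% in pESC, 0.247% in ESC-PGCLC, 0.200% in pESC-PGCLC and 0.360% in PGC. The order of these means is that of the TPM shares. The mRNAs and rRNAs held 6.35 to 10.2% of reads, with means of 8.92% in ESC, 8.63% in pESC, 9.26% in ESC-PGCLC, 9.30% in pESC-PGCLC and 6.82% in PGC. On this scale the stem cell and PGCLC libraries overlapped and both PGC libraries (6.35% and 7.29%) were lowest. All genes under 200 nt, 2435 in number, together took 13.7 to 20.8% of TPM.

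Nuclear copies limit what can be said of at least 7 mRNAs. A stretch of chromosome 1 (chr1:24611535-24616197, minus strand, GRCm38) carries annotated unprocessed pseudogenes that repeat a contiguous part of the mitochondrial genome: Gm29216 (part of mt-Co1), Gm28661 (mt-Co2), Gm10925 (mt-Atp6), Gm28437 (mt-Co3), Gm28438 (mt-Nd3), Gm10222 (mt-Nd4l) and Gm28439 (part of mt-Nd4). Of the 100-base stretches of mt-Co2, mt-Atp6, mt-Co3, mt-Nd3 and mt-Nd4l, 97.6 to 99.9% occurred exactly in the copy, against 60.8% for mt-Nd4 and 26.3% for mt-Co1 in its own copy. The table lists the copies at high TPM. The copy held 43.8 to 63.4% of the sum of gene and copy for mt-Co3, 67.0 to 78.3% for mt-Nd3, 40.6 to 51.5% for mt-Atp6, 34.5 to 46.7% for mt-Co2 and 35.5 to 55.7% for mt-Nd4l. The TPM of these genes is therefore uncertain. Whether their reads were split between both entries was not tested. For mt-Nd4 the copy held 1.60 to 4.59%. For mt-Co1 it held 3.83 to 7.41% in stem cells, 6.14 to 6.31% in pESC-PGCLC, 14.4 to 15.6% in ESC-PGCLC, and 36.3% and 23.2% in PGC, so that the part held by the copy moved with the groups. No 100-base stretch of mt-Nd1, mt-Atp8, mt-Nd5, mt-Nd6 or mt-Cytb was found in another annotated transcript. Smaller parts occurred in pseudogenes on chromosome 2. These were 3.19% of the stretches of mt-Nd2 (Gm13339), 5.53% of mt-Co1 (Gm13340) and 15.0% of mt-Co2 (Gm13341). Gm13339 measured 13.4 and 25.4 TPM in ESC, 33.5 and 36.2 in pESC, and 388 and 366 in ESC-PGCLC. It measured 57.8 and 64.4 TPM in pESC-PGCLC, and 115 and 213 in PGC. How reads that fit both a gene and a copy were assigned was not given in the sources used here.

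Among all genes of the table, mt-Cytb (chrM:14145-15288, plus strand), which encodes cytochrome b, the mitochondrially encoded subunit of complex III, ranked 1 to 4 in every library. It measured 29734 and 29356 TPM in ESC, 23289 and 34431 in pESC, 56746 and 49038 in ESC-PGCLC, 56134 and 78802 in pESC-PGCLC, and 23958 and 43017 in PGC. The 4 PGCLC libraries were above all others, and the PGC libraries lay far apart. The number of mitochondrial genes among the 20 highest genes was 6 to 8 in stem cell libraries, 10 in each PGCLC library and 14 in each PGC library.

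The 7 complex I subunits did not move together. mt-Nd1 (chrM:2751-3707, plus strand) measured 35839 and 34924 TPM in ESC, 24437 and 32647 in pESC, 17481 and 15975 in ESC-PGCLC, 22046 and 22005 in pESC-PGCLC, and 22906 and 20064 in PGC, highest in ESC and lowest in ESC-PGCLC. mt-Nd2 (chrM:3914-4951, plus strand) moved the other way, with 2792 and 3242 TPM in ESC, 2667 and 4683 in pESC, 11629 and 11558 in ESC-PGCLC, 4072 and 4529 in pESC-PGCLC, and 9502 and 8623 in PGC. ESC-PGCLC and PGC stood above the other groups, and pESC-PGCLC lay within the range of pESC. mt-Nd3 (chrM:9459-9806, plus strand) measured 265 and 354 TPM in ESC, 645 and 666 in pESC, 465 and 544 in ESC-PGCLC, 160 and 147 in pESC-PGCLC, and 842 and 466 in PGC. It was lowest in pESC-PGCLC, and its sequence is among those shared with a nuclear copy.

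mt-Nd4l (chrM:9877-10173, plus strand) measured 1232 and 1071 TPM in ESC and 947 and 1104 in pESC, but 238 and 247 in ESC-PGCLC, 353 and 265 in pESC-PGCLC, and 260 and 146 in PGC. All germ cell libraries were below all stem cell libraries. mt-Nd4 (chrM:10167-11544, plus strand), which shares a bicistronic mRNA with mt-Nd4l, measured 4570 to 6427 TPM in stem cells, 5680 to 8133 in PGCLC, and 11406 and 9033 in PGC. The ratio of mt-Nd4l to mt-Nd4 was therefore 0.172 to 0.207 in stem cells and 0.0162 to 0.0621 in germ cells, although both lie on the same mRNA. mt-Nd5 (chrM:11742-13565, plus strand) measured 1983 and 2050 TPM in ESC, 1164 and 1828 in pESC, 1076 and 981 in ESC-PGCLC, 2266 and 2795 in pESC-PGCLC, and 880 and 1250 in PGC, highest in pESC-PGCLC. mt-Nd6 (chrM:13552-14070), the mRNA coded on the minus strand, measured 2967 and 3876 TPM in ESC, 2214 and 3446 in pESC, 3237 and 3221 in ESC-PGCLC, 5813 and 6511 in pESC-PGCLC, and 8635 and 6935 in PGC. pESC-PGCLC and PGC were above the other groups. The ratio of mt-Nd6 to mt-Nd5, whose ends overlap on opposite strands, was 1.497 to 1.90 in stem cells, 2.33 to 3.29 in PGCLC, and 9.81 and 5.55 in PGC.

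Of the complex IV subunits, mt-Co1 (chrM:5328-6872, plus strand), which encodes the catalytic subunit of cytochrome c oxidase, measured 27326 and 25784 TPM in ESC, 18657 and 24119 in pESC, 12802 and 12127 in ESC-PGCLC, 16429 and 18700 in pESC-PGCLC, and 5865 and 11893 in PGC. ESC was highest and PGC lowest. With its nuclear copy added, mt-Co1 measured 28882 and 26812 TPM in ESC, 14948 and 14362 in ESC-PGCLC, and 9208 and 15492 in PGC, where ESC-PGCLC and PGC overlapped. mt-Co2 (chrM:7013-7696, plus strand) ranged from 1272 TPM in pESC-PGCLC to 3507 in pESC, and mt-Co3 (chrM:8607-9390, plus strand) from 2206 in ESC to 3597 in PGC. The ratio of mt-Cytb to mt-Co1 was 1.09 to 1.43 in stem cells and 3.42 to 4.43 in germ cells. The ratios given here were chosen after the values had been seen.

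Both ATP synthase subunits peaked in ESC-PGCLC. mt-Atp8 (chrM:7766-7969, plus strand) measured 6602 and 7362 TPM in ESC, 8384 and 9892 in pESC, 19949 and 20954 in ESC-PGCLC, 9927 and 11118 in pESC-PGCLC, and 4108 and 6779 in PGC. mt-Atp6 (chrM:7927-8607, plus strand), on the same bicistronic mRNA, measured 4313 and 4810, 5765 and 6593, 10364 and 11822, 5490 and 6151, and 4612 and 5026 TPM in the same order of groups. The ESC-PGCLC libraries were above all others for both genes, and the ratio of mt-Atp8 to mt-Atp6 stayed between 0.891 and 1.92. The rRNAs of the mitochondrial ribosome were lowest in stem cells. mt-Rnr2 (chrM:1094-2675, plus strand), the large subunit rRNA, measured 3830 and 3322 TPM in ESC, 2086 and 2860 in pESC, 7082 and 8370 in ESC-PGCLC, 4492 and 4896 in pESC-PGCLC, and 6786 and 5457 in PGC. mt-Rnr1 (chrM:70-1024, plus strand), the small subunit rRNA, measured 362 to 623 TPM in stem cells, 1407 and 1539 in ESC-PGCLC, 752 and 1347 in pESC-PGCLC, and 1588 and 1554 in PGC. The groups did not overlap for mt-Rnr2, whereas ESC and pESC overlapped for mt-Rnr1.

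**Figure D2:**
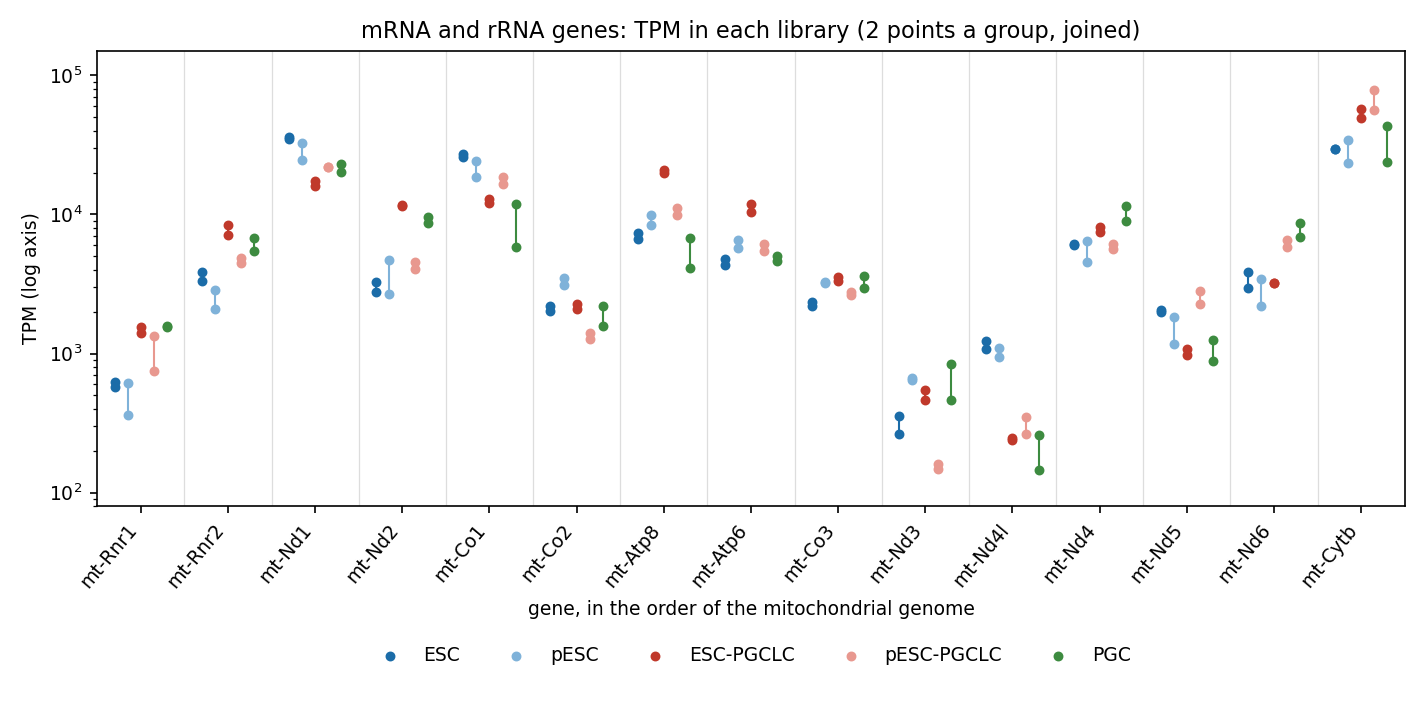
Points show the TPM (log axis) of each of the 2 rRNAs and 13 mRNAs in each library, with the 2 libraries of a group joined and genes in the order of the mitochondrial genome. mt-Nd2, mt-Atp8 and mt-Atp6 stand highest in ESC-PGCLC, mt-Nd4l is low in all germ cell groups, and mt-Cytb is highest in both PGCLC groups.

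The make-up of the mitochondrial mRNA pool differed accordingly. mt-Nd1, mt-Co1 and mt-Cytb together held 53.4 to 75.3% of the summed TPM of the 13 mRNAs. In ESC the leading mRNA by TPM was mt-Nd1 (28.7% ± 0.56, SD, n = 2), followed by mt-Cytb (23.9% ± 0.25). In pESC mt-Cytb (24.7% ± 1.9) and mt-Nd1 (24.6% ± 0.10) differed by less than their spread, and mt-Nd1 led in replicate 1. In the germ cell groups mt-Cytb led, with 36.8% ± 2.4 in ESC-PGCLC, 45.6% ± 4.6 in pESC-PGCLC and 30.4% ± 8.7 in PGC. By recovered reads, which are not divided by gene length, mt-Co1 ranked first in ESC (30.6%, against 25.3% for mt-Nd1 and 25.2% for mt-Cytb) and in pESC (27.5%, against 27.2% for mt-Cytb), and mt-Cytb ranked first in the 3 germ cell groups. Complex IV mRNAs held 25.1% in ESC and 24.3% in pESC but 12.6%, 14.8% and 12.9% in ESC-PGCLC, pESC-PGCLC and PGC, without overlap between the stem cell and germ cell libraries. Complex I mRNAs held 41.6%, 37.6%, 28.6%, 28.4% and 47.3% in ESC, pESC, ESC-PGCLC, pESC-PGCLC and PGC, with 55.1% and 39.5% in the 2 PGC libraries. Complex V mRNAs held 20.5% and 23.5% in ESC-PGCLC against 8.83 to 14.2% in the other libraries. As shares of the pool, these values do not depend on how TPM was scaled between libraries, but they do depend on the unit, as the ranks by reads show, and on the nuclear copies: with the copies added, mt-Cytb held 22.1%, 21.9% and 32.5% in ESC, pESC and ESC-PGCLC.

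**Figure D3:**
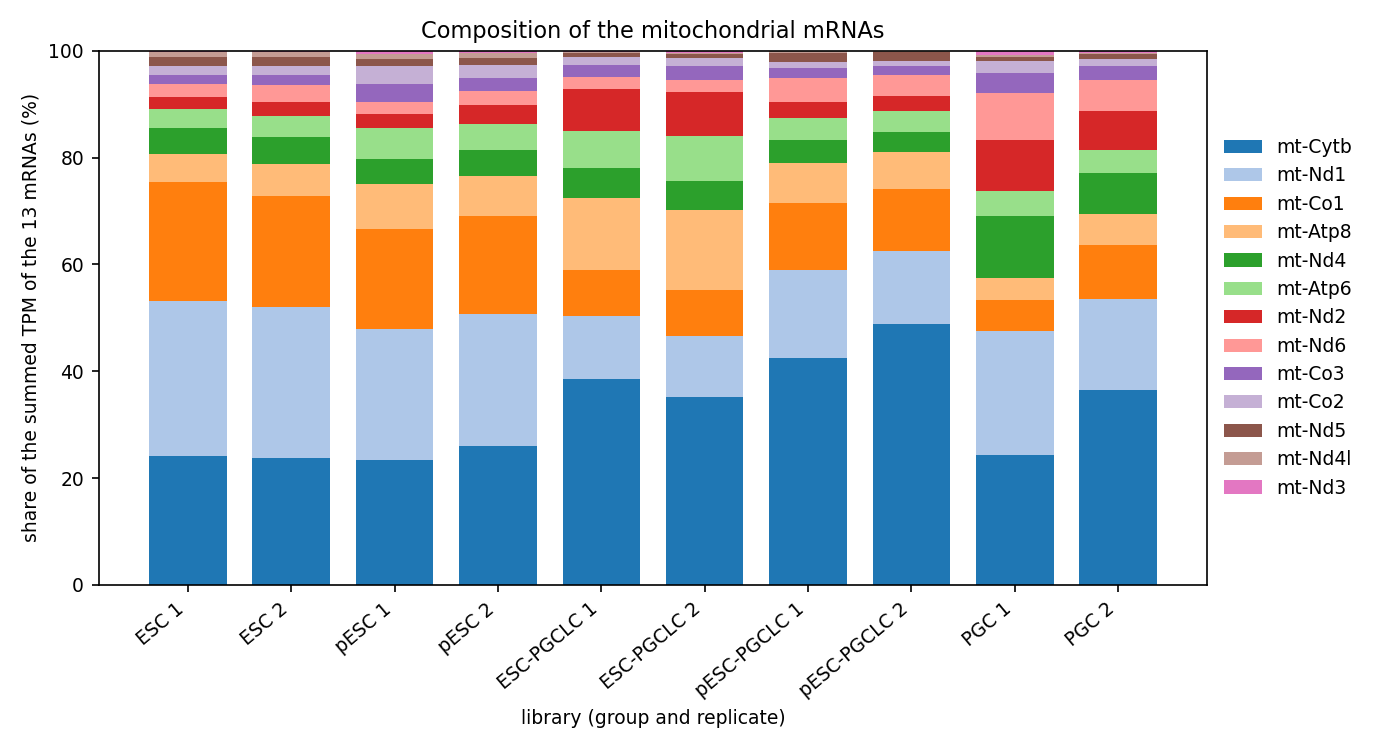
Stacked bars show each of the 13 mitochondrial mRNAs as a percentage of their summed TPM in each of the 10 libraries. The mt-Cytb segment widens from 23.4 to 26.1% in stem cells to 35.1 to 48.9% in PGCLC, and the mt-Nd1 and mt-Co1 segments narrow.

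The tRNA genes differed widely in mean TPM. The highest means over all libraries were those of mt-Ts1 (9210 TPM, a serine tRNA), mt-Te (5657 TPM, glutamate) and mt-Ty (5572 TPM, tyrosine), all on the minus strand, and the lowest those of mt-Tl2 (56.3 TPM, leucine), mt-Ts2 (73.9 TPM, serine) and mt-Tf (79.5 TPM, phenylalanine), all on the plus strand. The 8 minus-strand tRNAs held 65.2 to 71.6% of tRNA TPM in ESC and both PGCLC groups, 56.0% and 67.8% in pESC, and 75.7% and 78.5% in PGC. mt-Ts1 measured 6393 and 7060 TPM in ESC, 4537 and 7494 in pESC, 8178 and 8446 in ESC-PGCLC, 5185 and 6189 in pESC-PGCLC, and 22570 and 16048 in PGC. mt-Te measured 2409 to 3705 TPM in stem cells, 4028 and 4273 in ESC-PGCLC, 6258 and 6688 in pESC-PGCLC, and 14296 and 9392 in PGC. Both were highest in PGC without overlap. The scarce tRNAs rested on few reads: mt-Tl2 on 10 to 44 reads per library, mt-Ts2 on 15 to 53, mt-Th on 19 to 80, and mt-Tf on 1 read in PGC replicate 1. A single library stood apart for mt-Tv, the valine tRNA, with 4242 TPM (2572 reads) in pESC replicate 1 against 23.8 to 153 TPM in the other 9. mt-Tv lies on the plus strand and counts in the tRNA total of that library, whose minus-strand share (56.0%) was the lowest.

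**Figure D4:**
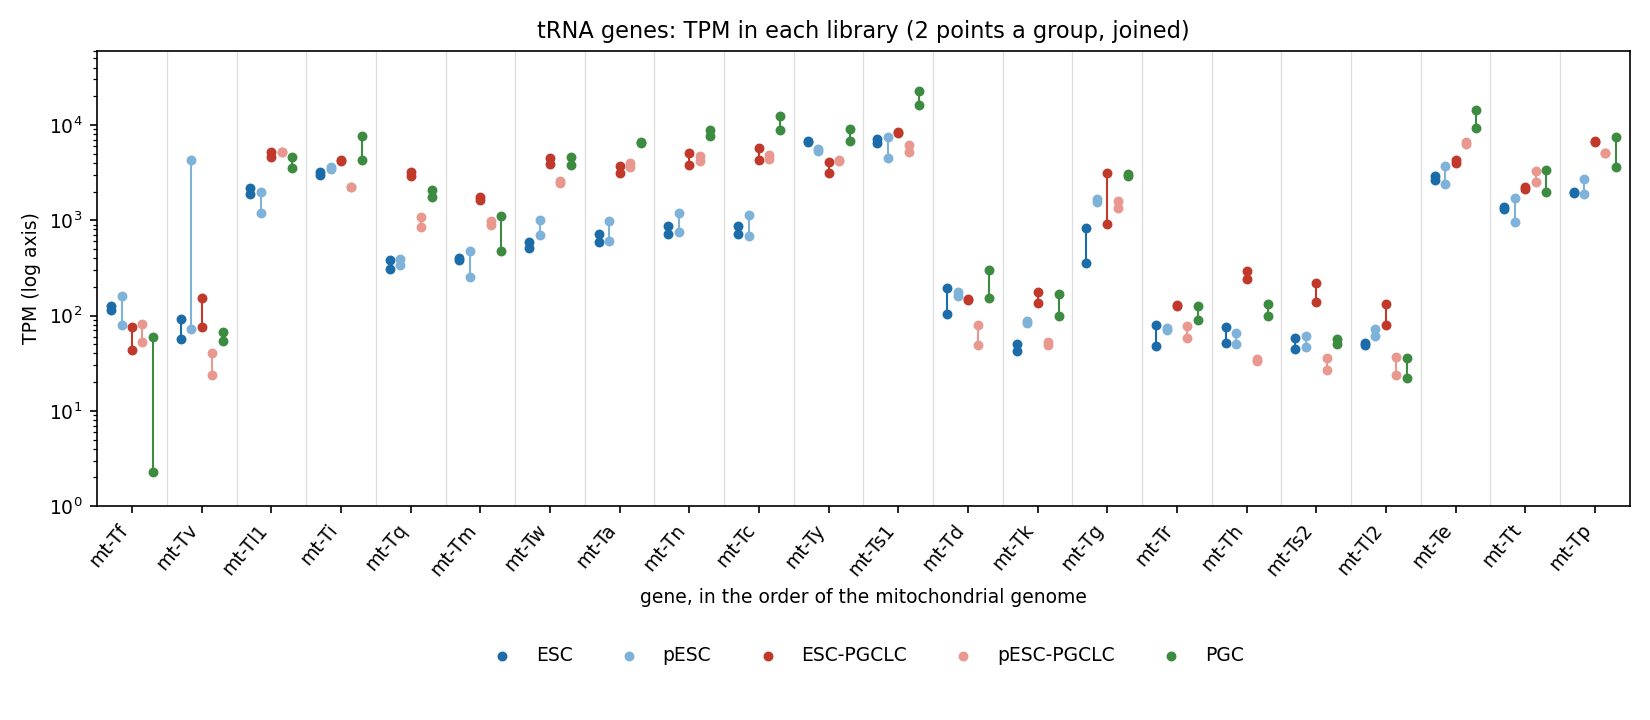
Points show the TPM (log axis) of each of the 22 mitochondrial tRNA genes in each library, with the 2 libraries of a group joined and genes in the order of the mitochondrial genome. The genes from mt-Tq to mt-Tc are lowest in both stem cell groups, mt-Ts1 and mt-Te are highest in PGC, and mt-Tv stands apart in pESC replicate 1 at 4242 TPM.

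The comparisons used limma on log2(TPM + 1), fitted over the 27259 genes with at least 0.1 TPM in 2 or more libraries, which included all 37 mitochondrial genes. A gene was called at a Benjamini-Hochberg adjusted p under 0.05 over all genes tested and a change of at least 2-fold, and differences below are on the log2(TPM + 1) scale. Each comparison is set beside the percentage of all genes tested that were called in it. Comparisons that name the same group share its 2 libraries and are not independent. Over the 5 groups, the F test of the same fit passed for all 15 mRNAs and rRNAs and for 20 of 22 tRNAs (not mt-Tf or mt-Tv), where 62.5% of all genes passed.

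Between the stem cell lines, pESC against ESC, no mitochondrial gene was called by limma, in a comparison that called 0.781% of all genes (0.165% higher and 0.616% lower). At an unadjusted p under 0.05 there were 5 of 15 mRNAs and rRNAs and 3 of 22 tRNAs. The share of all genes under that threshold was not taken, so nothing can be read from these counts. Voom on recovered reads called 1 of each, mt-Nd3 and mt-Tg, where it called 459 of all 27091 genes tested (184 higher and 275 lower). The largest difference among the mRNAs was that of mt-Nd3, at 1.10 (SE 0.27, adjusted p = 0.083), which had 645 and 666 TPM in pESC against 265 and 354 in ESC. The median difference was -0.17 for mRNAs and rRNAs and 0.16 for tRNAs, beside -0.06 for all genes. Without pESC replicate 2, 1 tRNA was called, mt-Tv.

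On differentiation of the ESC line, ESC-PGCLC against ESC, tRNAs and both rRNAs rose while mRNAs moved in both directions. Of 22 tRNAs 14 rose and none fell, and of 15 mRNAs and rRNAs 5 rose and 3 fell, where 29.8% of all genes were called (15.3% higher and 14.5% lower). The tRNA median was 1.44 beside 0.05 for all genes. mt-Nd2 rose by 1.95 (SE 0.27, adjusted p = 0.00055), mt-Atp8 by 1.55 (SE 0.26, adjusted p = 0.00159), mt-Atp6 by 1.28 (SE 0.18, adjusted p = 0.000635), mt-Rnr1 by 1.30 (SE 0.31, adjusted p = 0.01) and mt-Rnr2 by 1.11 (SE 0.22, adjusted p = 0.00389). mt-Nd4l fell by 2.24 (SE 0.27, adjusted p = 0.000293), mt-Co1 by 1.09 (SE 0.33, adjusted p = 0.027) and mt-Nd1 by 1.08 (SE 0.22, adjusted p = 0.00459). The largest tRNA rises were those of mt-Tq (glutamine) by 3.14 (SE 0.19, adjusted p = 1.14e-05), mt-Tw (tryptophan) by 2.93 (SE 0.21, adjusted p = 2.12e-05) and mt-Tc (cysteine) by 2.65 (SE 0.29, adjusted p = 0.000178). mt-Tq went from 309 and 382 TPM in ESC to 3180 and 2886, mt-Tw from 510 and 590 to 4449 and 3924, and mt-Tc from 717 and 863 to 4310 and 5677. Without ESC-PGCLC replicate 2, 5 of the 8 mRNA and rRNA calls were left, the lost ones being mt-Rnr1, mt-Rnr2 and mt-Co1. The call of mt-Co1 was lost without any 1 of the 4 libraries and with its nuclear copy added (a difference of -0.93). mt-Nd3 (0.72), mt-Nd4 (0.35), mt-Co2 (0.05), mt-Co3 (0.60), mt-Nd5 (-0.97), mt-Nd6 (-0.07) and mt-Cytb (0.84) were not called. Quantile normalization lost the calls of mt-Rnr2, mt-Co1 and mt-Atp6 and added mt-Nd5 and mt-Cytb. It gave 4 higher and 3 lower mRNAs and rRNAs and 13 higher and 1 lower tRNAs. Rescaling to nuclear genes lost mt-Nd1 and mt-Co1. Median centring gave 5 higher and 2 lower mRNAs and rRNAs and 14 higher tRNAs.

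On differentiation of the parthenogenetic line, pESC-PGCLC against pESC, 10 tRNAs rose and 2 fell, and of 15 mRNAs and rRNAs 3 rose and 3 fell, where 27.6% of all genes were called (20.8% higher and 6.8% lower). The tRNA median was -0.08 beside 0.22 for all genes, with 10 tRNAs above 0 and 12 below. mt-Cytb rose by 1.23 (SE 0.35, adjusted p = 0.0223), mt-Nd6 by 1.16 (SE 0.25, adjusted p = 0.00693) and mt-Rnr1 by 1.10 (SE 0.31, adjusted p = 0.0223). mt-Nd3 fell by 2.09 (SE 0.27, adjusted p = 0.000532), mt-Nd4l by 1.74 (SE 0.27, adjusted p = 0.00126) and mt-Co2 by 1.30 (SE 0.20, adjusted p = 0.00105), all of which share sequence with nuclear copies. Among tRNAs, mt-Tc rose by 2.40 (SE 0.29, adjusted p = 0.000365), mt-Ta (alanine) by 2.29 (SE 0.24, adjusted p = 0.00018) and mt-Tn (asparagine) by 2.24 (SE 0.26, adjusted p = 0.000291), while mt-Td (aspartate) fell by 1.42 (SE 0.39, adjusted p = 0.0195) and mt-Tl2 by 1.13 (SE 0.31, adjusted p = 0.0198). mt-Ta went from 609 and 985 TPM to 4003 and 3600, and mt-Tn from 745 and 1191 to 4725 and 4215. mt-Td had 159 and 176 TPM in pESC and 78.8 and 48.6 in pESC-PGCLC, without overlap, as had 69.0% of all genes tested. The 2 tRNA falls rested on few reads in these groups, 32 to 107 per library for mt-Td and 16 to 44 for mt-Tl2. Both lost their call without pESC replicate 1, without pESC replicate 2 and without pESC-PGCLC replicate 2. The rises here depended on the scaling: with each library centred on its median gene, which lowers the median difference of all genes by 0.73, none of the 3 mRNA and rRNA rises was called (0 higher, 4 lower) and tRNAs gave 4 higher and 8 lower. Quantile normalization gave 10 higher and 5 lower tRNAs. Without pESC replicate 1 the counts were 0 higher and 3 lower for mRNAs and rRNAs and 6 in all for tRNAs, and without pESC-PGCLC replicate 2 also 6 tRNAs were called.

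Between the PGCLCs, pESC-PGCLC against ESC-PGCLC, the calls among mitochondrial genes were mostly lower, in a comparison that called 13.4% of all genes, 10.3% higher and 3.08% lower. Of 15 mRNAs and rRNAs 1 was higher and 2 were lower, and of 22 tRNAs 5 were lower and none higher. mt-Nd5 was higher by 1.29 (SE 0.26, adjusted p = 0.00945), a call lost without ESC-PGCLC replicate 2 (1.23), without pESC-PGCLC replicate 2 (1.14) and under median centring (0.88). mt-Nd3 fell by 1.71 (SE 0.27, adjusted p = 0.0035) and mt-Nd2 by 1.43 (SE 0.27, adjusted p = 0.00666). The block of mt-Th (histidine), mt-Ts2 and mt-Tl2 held the largest falls among called genes: mt-Th fell by 2.94 (SE 0.23, adjusted p = 0.000205), mt-Ts2 by 2.46 (SE 0.27, adjusted p = 0.000656) and mt-Tl2 by 1.76 (SE 0.31, adjusted p = 0.00576). mt-Th had 245 and 293 TPM in ESC-PGCLC and 33.3 and 34.9 in pESC-PGCLC, against 49.9 to 75.3 in stem cells and 131 and 99.1 in PGC, so that the ESC-PGCLC libraries were high and the pESC-PGCLC libraries low. These counts moved with the scaling as well, to 0 higher and 6 lower mRNAs and rRNAs and 10 lower tRNAs under median centring (a shift of -0.41 in the median of all genes), and to 3 higher and 2 lower mRNAs and rRNAs and 7 lower tRNAs under quantile normalization. Without the 2-fold minimum 7 mRNAs and rRNAs and 8 tRNAs passed, beside 23.8% of all genes. Blood markers, at 492 to 562 TPM in ESC-PGCLC and 2901 to 3438 in pESC-PGCLC, moved with this comparison, and their part in it was not tested.

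In PGC set against ESC-PGCLC, mt-Nd6 and 4 minus-strand tRNAs were higher on the TPM scale and both ATP synthase mRNAs lower. For PGC against ESC-PGCLC, 13.8% of all genes passed, 12% on the higher and 1.88% on the lower side. Of 15 mRNAs and rRNAs 1 was higher and 2 lower. mt-Nd6 rose by 1.26 (SE 0.25, adjusted p = 0.0092), mt-Atp8 fell by 1.95 (SE 0.26, adjusted p = 0.00232) and mt-Atp6 by 1.20 (SE 0.18, adjusted p = 0.00334). Of 22 tRNAs 4 were higher and 3 lower, the former all minus-strand and the latter all plus-strand genes. mt-Te rose by 1.48 (SE 0.27, adjusted p = 0.00626), mt-Ts1 by 1.20 (SE 0.28, adjusted p = 0.0164) and mt-Ty by 1.12 (SE 0.21, adjusted p = 0.00676), whereas mt-Tl2 fell by 1.83 (SE 0.31, adjusted p = 0.00525), mt-Ts2 by 1.70 (SE 0.27, adjusted p = 0.00384) and mt-Th by 1.23 (SE 0.23, adjusted p = 0.00753). Under median centring, a shift of -0.61 in the median of all genes, no rise was called (0 higher and 4 lower mRNAs and rRNAs, 0 higher and 5 lower tRNAs). In a fit of these 2 groups alone, the calls of mt-Nd6, mt-Atp8, mt-Atp6 and all 4 tRNA rises were lost, and those of mt-Tl2, mt-Ts2 and mt-Th were left. Without PGC replicate 2, 5 mRNAs and rRNAs were called, and without ESC-PGCLC replicate 1, 4 tRNAs.

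For PGC against pESC-PGCLC, 3.67% of all genes passed, 2.07% on the higher and 1.6% on the lower side. Of 15 mRNAs and rRNAs 2 were higher and 1 lower, and 1 was higher and 1 lower under median centring and 1 higher and 2 lower under quantile normalization. mt-Nd3 rose by 2.02 (SE 0.27, adjusted p = 0.0134) and mt-Nd2 by 1.08 (SE 0.27, adjusted p = 0.0477), and mt-Nd5 fell by 1.26 (SE 0.26, adjusted p = 0.0331). Of 22 tRNAs 6 were higher and none lower, with mt-Td at 1.76 (SE 0.39, adjusted p = 0.0387), mt-Ts1 at 1.75 (SE 0.28, adjusted p = 0.0205) and mt-Th at 1.71 (SE 0.23, adjusted p = 0.0134). These calls were fragile: without either pESC-PGCLC library no mitochondrial gene was called, and without PGC replicate 1 a single mRNA and no tRNA was. Without PGC replicate 2, 5 mRNAs and rRNAs were called. A fit of these 2 groups alone called no mitochondrial gene and no gene at all.

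The change on differentiation was also compared between origins, as the change of pESC-PGCLC against pESC minus that of ESC-PGCLC against ESC. This interaction was called for 19.1% of all genes (15.5% higher and 3.53% lower), and for 7 of 15 mRNAs and rRNAs, 2 higher and 5 lower, and 6 of 22 tRNAs, all lower. The mRNA calls were mt-Nd5 and mt-Nd6 on the higher side and mt-Nd2, mt-Nd3, mt-Co2, mt-Atp8 and mt-Atp6 on the lower side. The median was -0.21 for mRNAs and rRNAs and -0.87 for tRNAs, beside 0.21 for all genes, and the split became 1 higher and 6 lower mRNAs and rRNAs with 10 lower tRNAs under median centring, and 3 higher and 1 lower with 6 lower tRNAs under quantile normalization. For mt-Nd2 the levels behind it were a step from 2792 and 3242 to 11629 and 11558 TPM in the ESC line and from 2667 and 4683 to 4072 and 4529 TPM in the parthenogenetic line, the latter with overlap. Without ESC replicate 1, 3 mRNAs and rRNAs were called, and without pESC-PGCLC replicate 1, 4.

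**Figure D5:**
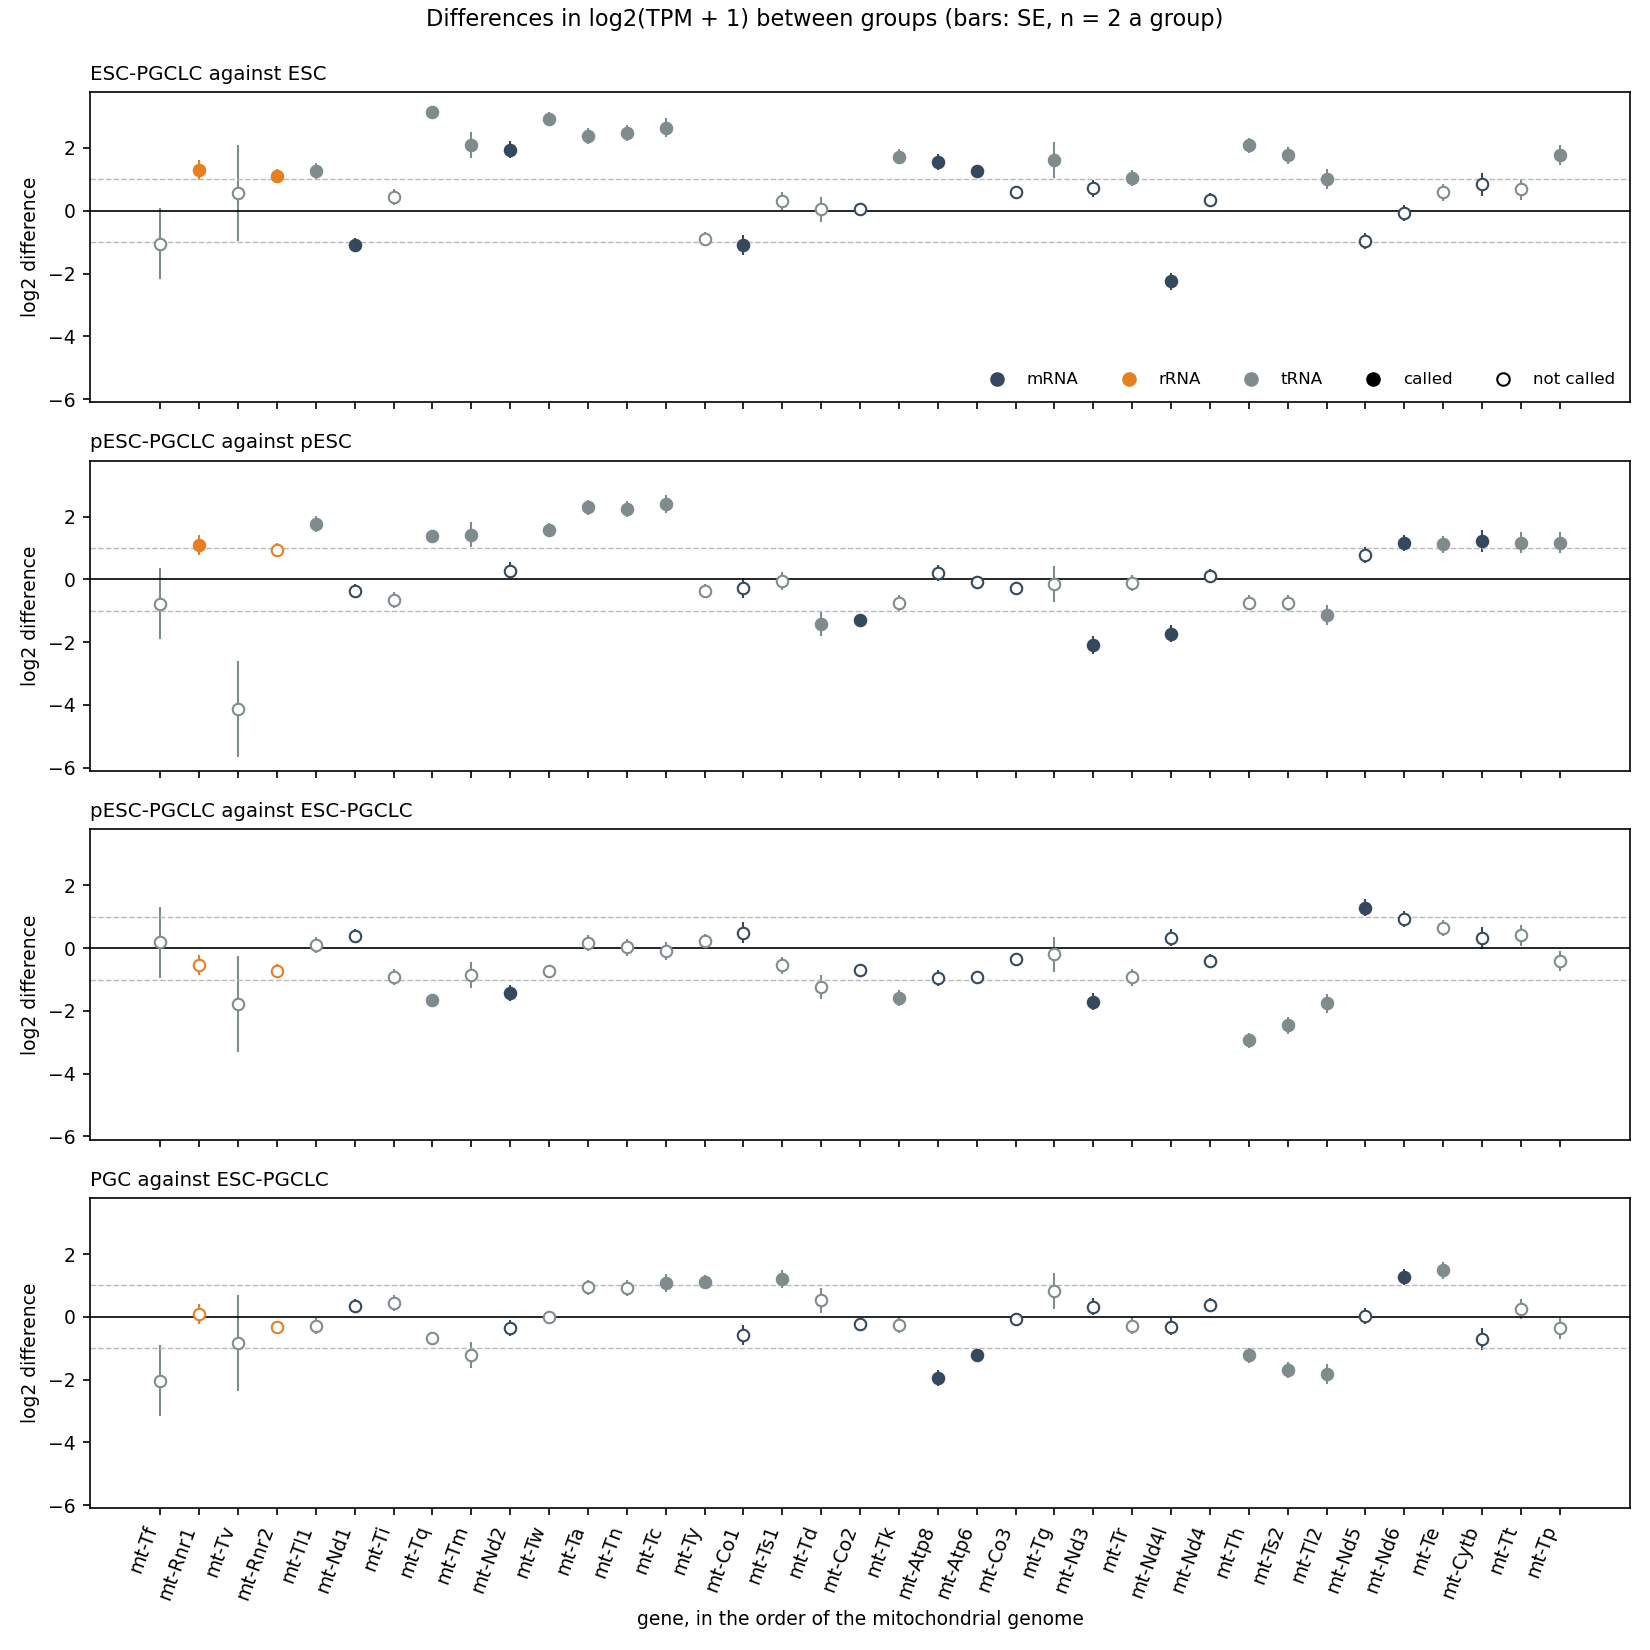
Each panel plots the log2(TPM + 1) difference of the 37 genes in 1 comparison, with genes in the order of the mitochondrial genome, bars for the SE, filled points for called genes and dashed lines at a 2-fold change. In ESC-PGCLC against ESC, the points from mt-Tq to mt-Tc lie at 1.95 to 3.14, between mt-Nd1 and mt-Co1, which fell.

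In gene order, the 7 neighbouring genes from mt-Tq to mt-Tc (mt-Tq, mt-Tm, mt-Nd2, mt-Tw, mt-Ta, mt-Tn and mt-Tc; chrM:3772-5257, 1486 nt), a stretch chosen after its values were seen, were all called higher in ESC-PGCLC against ESC, at 1.95 to 3.14, where 22 of the 37 genes were called in either direction. Whether calls lie closer together than their number gives was not tested. The genes on either side were not: mt-Ti (isoleucine) upstream was at 0.44 and mt-Ty downstream at -0.89, and beyond them mt-Nd1 and mt-Co1 fell. The calls of mt-Nd1 and mt-Co1 were lost with rescaling to nuclear genes. The stretch holds genes of both strands, with mt-Tq, mt-Ta, mt-Tn and mt-Tc on the minus strand and mt-Tm, mt-Nd2 and mt-Tw on the plus strand. In pESC-PGCLC against pESC, 6 of the 7 rose and mt-Nd2 was at 0.28 (SE 0.27, adjusted p = 0.437). Under median centring the rises of mt-Ta, mt-Tn and mt-Tc were called and those of mt-Tq, mt-Tm and mt-Tw were not. Within the stretch the origins differed by the interaction in 3 genes, mt-Tq, mt-Nd2 and mt-Tw, all lower. The sequences of the tRNAs of the stretch are printed above, except that of mt-Tm.

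By strand, the 8 minus-strand tRNAs had a median of 2.07 and the 14 plus-strand tRNAs of 1.16 in ESC-PGCLC against ESC. Of them 5 and 9 were called higher, similar shares of each strand, beside 15.3% of all genes. In pESC-PGCLC against pESC the medians were 1.29 and -0.69, with 6 of 8 minus-strand tRNAs rising against 4 of 14 plus-strand tRNAs, and 2 of the latter falling. There 20.8% of all genes were called higher and 6.8% lower. In PGC against ESC-PGCLC the medians were 1.01 and -0.28, with 4 minus-strand tRNAs higher and 3 plus-strand tRNAs lower, beside 12% and 1.88% of all genes. In PGC against pESC-PGCLC the strands were alike, with medians of 0.89 and 0.74 and 2 of 8 and 4 of 14 called higher. In pESC-PGCLC against ESC-PGCLC the medians were -0.04 and -0.92, with 1 and 4 called lower. In pESC against ESC they were 0.13 and 0.20, with none called. mt-Nd6, the minus-strand mRNA, was called higher in pESC-PGCLC against pESC and in PGC against ESC-PGCLC. Both calls were lost under median centring, and it was not called in ESC-PGCLC against ESC. Median centring moves both strands alike, and the difference between strands was not tested.

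The nuclear genes that maintain, transcribe and use mitochondrial DNA were read from 12 lists with 251 genes tested. On differentiation of the ESC line 27 rose and 76 fell, that is 41% called beside 29.8% of all genes. The counts were 28 and 76 under median centring, where 4231 of all 27259 genes were higher and 3930 lower. In pESC-PGCLC against pESC 62 were higher and 11 lower (29.1% beside 27.6% of all genes), but 13 higher and 49 lower under median centring, so that the direction in the parthenogenetic line turned with the scaling. The interaction called 121 higher and 10 lower (52.2% beside 19.1% of all genes), and 42 higher and 34 lower under median centring. There 1727 of all genes were higher and 4062 lower. The direction also turned for PGC against ESC-PGCLC, with 45 higher and 9 lower (21.5% beside 13.8%) against 8 and 34 under median centring. That of all genes turned there as well, from 3260 higher and 512 lower to 712 and 2003. In pESC-PGCLC against ESC-PGCLC there were 66 higher and 9 lower (29.9% beside 13.4%) against 33 and 21 under median centring. There 1460 of all genes were higher and 1891 lower. For PGC against pESC-PGCLC the counts were 3 and 13 (6.37% beside 3.67%) against 2 and 26 under median centring, beside 293 and 821 of all genes. Between the stem cell lines 1 gene was called, Ndufv1, a complex I subunit at -1.15 (SE 0.19, adjusted p = 0.0435), and it was not called under median centring (-0.81). The lists are therefore described mainly for the ESC line, and pESC-PGCLC counts are given under both scalings. Each ESC-line count below stands beside 29.8% of all genes called in ESC-PGCLC against ESC, 15.3% higher and 14.5% lower. In pESC-PGCLC against pESC 20.8% of all genes were higher and 6.8% lower. Under median centring, 2280 of the 27259 genes were higher there and 5010 lower.

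Of the 10 genes that transcribe mitochondrial DNA, none rose and 4 fell in ESC-PGCLC against ESC. The parthenogenetic line had no call in this list, and 3 were lower under median centring. Tfb2m, the initiation factor, fell by 1.76 (SE 0.20, adjusted p = 0.000216) in the ESC line, from 13.2 and 13.1 TPM to 3.52 and 2.89. Tfam, which packages and activates mitochondrial DNA, measured 28.6 and 28.3 TPM in ESC, 17.2 and 23.1 in pESC, 23.3 and 28.1 in ESC-PGCLC, 26.6 and 24.8 in pESC-PGCLC, and 26.1 and 32.2 in PGC, and it was called in none of the 7 comparisons, nor were Tfb1m and the elongation factor Tefm. Polrmt, the mitochondrial RNA polymerase, was low throughout, with 1.23 and 1.35 TPM in ESC, 0.656 and 0.862 in pESC, 0.359 and 1.10 in ESC-PGCLC, 2.26 and 2.09 in pESC-PGCLC, and 3.38 and 2.58 in PGC. Its difference of 1.23 (SE 0.23, adjusted p = 0.00756) in PGC against ESC-PGCLC passed, and under median centring it was 0.62 and not called.

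Among the 15 genes that maintain mitochondrial DNA, 3 rose and 3 fell in ESC-PGCLC against ESC. The largest rise was that of Ssbp1, which binds single-stranded mitochondrial DNA, by 1.73 (SE 0.17, adjusted p = 9.69e-05), and Dguok, which salvages deoxyguanosine, fell by 2.01 (SE 0.15, adjusted p = 2.57e-05), from 12.8 and 11.1 TPM to 2.37 and 2.08. Polg, the mitochondrial DNA polymerase, went from 2.84 and 2.83 TPM in ESC to 10.04 and 9.77 in ESC-PGCLC, a rise of 1.51 (SE 0.17, adjusted p = 0.000201), and from 2.07 and 3.16 in pESC to 14.7 and 13.9 in pESC-PGCLC, a rise of 2.10 (SE 0.17, adjusted p = 5.68e-05) that was 1.37 and still called under median centring. Both germ cell groups from culture thus stood above their stem cells, and PGC had 24.2 and 24.0 TPM. Polg2, its accessory subunit, rose in ESC-PGCLC against ESC by 1.41 (SE 0.19, adjusted p = 0.00055), and its rise of 1.15 in pESC-PGCLC against pESC was not called under median centring (0.42). Twnk, the helicase of mitochondrial DNA, was at -0.88 and 0.69 in the 2 differentiations, not called in either, and rose in PGC against ESC-PGCLC by 1.63 (SE 0.19, adjusted p = 0.00165), or 1.03 under median centring.

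Lrpprc and Slirp encode partners that protect mitochondrial mRNAs from decay. Lrpprc rose by 1.65 (SE 0.15, adjusted p = 6.84e-05) in the ESC line, from 8.31 and 8.66 to 28.6 and 28.7 TPM, and by 3.003 (SE 0.15, adjusted p = 7.6e-06) in the parthenogenetic line, from 4.87 and 6.27 to 49.8 and 53.0 TPM, the latter 2.27 and still called under median centring. Slirp rose in the ESC line by 1.56 (SE 0.38, adjusted p = 0.0107), from 284 and 338 TPM to 833 and 1009 TPM, while in the parthenogenetic line it had 269 and 444 TPM before and 368 and 351 after, with overlap. Among the 31 genes of mitochondrial RNA processing and decay, 5 rose and 7 fell in ESC-PGCLC against ESC. In the parthenogenetic line 9 were higher and 3 lower, or 5 and 6 under median centring. The largest fall in the former was that of Fastkd2, an RNA-binding protein of mitochondrial ribosome assembly, which fell by 3.24 (SE 0.23, adjusted p = 2.2e-05), and the largest rise that of Nsun3, which modifies the methionine tRNA, by 2.54 (SE 0.20, adjusted p = 3.36e-05). Hsd17b10, a subunit of the RNase P that cuts the 5′ ends of mitochondrial tRNAs, measured 226 and 207 TPM in ESC, 147 and 215 in pESC, 49.4 and 39.4 in ESC-PGCLC, 233 and 221 in pESC-PGCLC, and 81.8 and 128 in PGC. ESC-PGCLC was the lowest group for this gene, and pESC-PGCLC was higher than it by 2.34 (SE 0.26, adjusted p = 0.000676), or 1.93 under median centring.

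Of 75 mitochondrial ribosomal proteins 6 rose and 28 fell in ESC-PGCLC against ESC. In pESC-PGCLC against pESC 22 were higher and none lower, but 2 higher and 11 lower under median centring. Mrpl4, of the large subunit, fell by 3.11 (SE 0.20, adjusted p = 1.31e-05) in the ESC line, from 49.9 and 39.6 TPM to 4.02 and 4.51, and stood at 41.2 and 39.1 TPM in pESC-PGCLC. Mrpl33, also of the large subunit, rose by 3.02 (SE 0.28, adjusted p = 7.79e-05), from 57.5 and 64.4 TPM to 473 and 529. The 17 mitochondrial tRNA synthetases gave 3 rises and 2 falls on differentiation of ESC, near the 29.8% of all genes called there. Iars2, the isoleucine enzyme, rose by 2.19 (SE 0.18, adjusted p = 4.57e-05). Lars2, the leucine enzyme, fell by 1.61 (SE 0.18, adjusted p = 0.000173). In the parthenogenetic line 8 synthetases were higher, or 3 under median centring, Iars2 among them at 2.22 and 1.49. The 13 translation factors gave 1 rise and 5 falls and the 8 regulators of biogenesis 1 rise (Yy1) and no fall in ESC-PGCLC against ESC. The list of 8 regulators is too short for its count to be set apart from the share of all genes. Tufm, the elongation factor that brings tRNAs to the mitochondrial ribosome, fell by 1.81 (SE 0.16, adjusted p = 5.63e-05). Of 12 markers of mitochondrial mass 7 fell and none rose there, and Vdac1, the outer membrane channel, fell by 3.60 (SE 0.15, adjusted p = 2.86e-06). In the parthenogenetic line it fell by 2.27 (SE 0.15, adjusted p = 2.55e-05), a fall that was larger under median centring.

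Nuclear subunits of the complexes that hold the mitochondrially encoded proteins were called in both directions. Of 36 complex I subunits 6 rose and 9 fell in ESC-PGCLC against ESC, with Ndufa6 rising by 1.80 (SE 0.14, adjusted p = 2.79e-05), from 220 and 223 TPM to 757 and 792. Ndufa10 fell by 2.78 (SE 0.22, adjusted p = 3.48e-05), from 123 and 113 TPM to 14.7 and 17.9. For pESC-PGCLC against pESC 11 were higher and none lower, or 1 and 3 under median centring. Of 9 complex III subunits 2 fell and none rose in the ESC line. Uqcrc1, a core subunit of complex III, fell by 3.32 (SE 0.19, adjusted p = 8.73e-06) there, from 146 and 116 TPM to 13.6 and 10.8, while mt-Cytb of the same complex was at 0.84 and not called. In the parthenogenetic line Uqcrc1 rose by 1.74 (SE 0.19, adjusted p = 0.000231), from 60.2 and 70.9 TPM to 195 and 250, or by 1.01 under median centring. Of 11 complex IV subunits 2 rose and 4 fell in the ESC line, and 4 fell in the parthenogenetic line, or 7 under median centring. Cox7c rose by 2.40 (SE 0.22, adjusted p = 7.6e-05) in the ESC line, from 1661 and 1912 TPM to 8166 and 10787. Cox8a fell by 2.77 (SE 0.26, adjusted p = 8.33e-05) in the former and by 2.04 (SE 0.26, adjusted p = 0.000476) in the latter. Of 14 complex V subunits 5 fell and none rose in ESC-PGCLC against ESC, where mt-Atp6 and mt-Atp8 rose, and Atp5d fell by 2.18 (SE 0.28, adjusted p = 0.000368).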

How the data were processed

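RNA-seq was done on 10 libraries of mouse cells, 2 per group, and groups were taken from the labels. According to the study's methods, the authors made cDNA from small numbers of cells by Smart-seq2, aligned clean reads to mm10 with Hisat2 and counted them on genes with Feature-counts. The labels name another library kit and, among the submitters' processing notes, also list Bowtie2, RSEM, R 3.4.2 and DESeq2 without a role. The study tested counts with DESeq2, but the table used here was deposited as TPM, which the authors scaled to 1000000 per library after division by gene length, so TPM depends on gene length and on every other gene of the library. Multi-mapping, strand and the versions of the aligner and the counter were not given in the sources used here.

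The members and the lists of nuclear genes and markers were chosen with earlier results of these data known. TPM were tested with limma 3.58.1 (R 4.3.3) on log2(TPM + 1) with an intensity trend, fitted over all 10 libraries and 27259 genes that reached 0.1 TPM in 2 of them (residual df 5, prior df 2.81), two-sided, with Benjamini-Hochberg adjustment over all genes. The text names all mRNAs and rRNAs, up to 3 called tRNAs per direction and comparison, the 3 tRNAs of highest and of lowest mean TPM, nuclear copies that share over 50% of stretches, 10 nuclear factors fixed by name, and called genes of largest difference per nuclear list. Genes outside this rule that the text names were chosen after their values were seen. The P-values measure the spread between the libraries of a group, which the study describes as biological replicates. Reads were recovered from TPM and GENCODE M21 exon lengths. Tables were made with Python 3.11.15, pandas 2.3.3 and numpy 2.4.6 and figures with matplotlib 3.10.9. The fit was tested on simulated data. Settings varied were the pseudocount (0.1), the low-value filter (1 TPM, or none), the compared groups alone, quantile normalization, median centring over 9024 genes with at least 1 TPM everywhere, rescaling to nuclear genes, genes of at least 200 nt, no fold minimum, voom on recovered reads, a replicate block and leaving out each library. Adding nuclear copies was chosen after seeing the data, as were the ratios between genes and the stretch from mt-Tq to mt-Tc.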

Additional observations from a re-analysis of the deposited data

Results flagged for a closer look

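The change on differentiation differed between the parthenogenetic and the ESC line, by the interaction of the limma fit (Benjamini-Hochberg adjusted p under 0.05 and at least 2-fold), for 13 of the 37 mitochondrial genes, where 19.1% of all genes were called. Values are the log2 change of pESC-PGCLC against pESC minus that of ESC-PGCLC against ESC. Lower values were found for mt-Nd2 (-1.66), mt-Nd3 (-2.80), mt-Co2 (-1.35), mt-Atp8 (-1.35) and mt-Atp6 (-1.37) among the mRNAs. Among the tRNAs they were found for mt-Tq (-1.74), mt-Tw (-1.34), mt-Tk (-2.47), mt-Th (-2.82), mt-Ts2 (-2.51) and mt-Tl2 (-2.14). Higher values were found for mt-Nd5 (1.76) and mt-Nd6 (1.23). mt-Tq, mt-Tk, mt-Nd3, mt-Th, mt-Ts2 and mt-Nd5 were called in every alternative run, whereas mt-Atp8 and mt-Nd6 lost the call in 10 alternatives each. mt-Nd5 had differences of opposite sign in the 2 lines (-0.97 in the ESC line and 0.79 in the parthenogenetic line, neither called), from 1983 and 2050 to 1076 and 981 TPM and from 1164 and 1828 to 2266 and 2795 TPM. The lysine tRNA mt-Tk went from 50.1 and 42.7 to 136 and 178 TPM in the ESC line and from 84.0 and 87.0 to 52.4 and 49.1 TPM in the parthenogenetic line. Few reads lay behind the calls of mt-Tk (29 to 70 per library), mt-Th (19 to 80) and mt-Ts2 (15 to 53).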

How the results depend on the processing

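No called mitochondrial gene changed direction in an alternative run here. Of 1202 comparisons of a called gene with an alternative, 1023 kept the call and 179 lost it. Where counts moved by more than 1.5 times, mRNAs and rRNAs together and tRNAs apart, the values were as follows. For pESC against ESC (0 and 0), voom called 1 and 1, and 459 of all 27091 genes tested. For pESC-PGCLC against ESC-PGCLC (3 and 5), there were 7 and 8 without the fold minimum, 6 and 10 with median centring, and 5 mRNAs and rRNAs each with quantile normalization and voom. For pESC-PGCLC against pESC (6 and 12), voom called 3 mRNAs and rRNAs. For PGC against ESC-PGCLC (3 and 7), the compared groups alone gave 0 and 3. For PGC against pESC-PGCLC (3 and 6), they gave 0 and 0, and mRNAs and rRNAs numbered 5 with the 1 TPM filter, 1 without a filter and 5 with voom. For the interaction (7 and 6), quantile normalization gave 4 mRNAs and rRNAs and median centring 10 tRNAs. Nuclear list calls went from 1 to 0 with the replicate block for pESC against ESC, from 16 to 28 with median centring for PGC against pESC-PGCLC and from 131 to 76 for the interaction.

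With 1 library left out at a time, the lone library being assumed to vary like the other groups, mRNA and rRNA counts ranged from 0 to 0, 2 to 4, 5 to 8, 3 to 7, 3 to 5, 0 to 5 and 3 to 6 for pESC against ESC, pESC-PGCLC against ESC-PGCLC, ESC-PGCLC against ESC, pESC-PGCLC against pESC, PGC against ESC-PGCLC, PGC against pESC-PGCLC and the interaction. The tRNA counts ranged from 0 to 1, 5 to 5, 12 to 14, 6 to 11, 4 to 7, 0 to 7 and 4 to 7 in the same order.

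As shares of recovered reads, mRNAs and rRNAs held 8.92%, 8.63%, 9.26%, 9.30% and 6.82% and tRNAs 0.128%, 0.152%, 0.247%, 0.200% and 0.360% in ESC, pESC, ESC-PGCLC, pESC-PGCLC and PGC. Among genes of at least 200 nt, mRNAs and rRNAs held 15.4%, 17.9%, 17.9% and 14.4% of TPM in ESC, ESC-PGCLC, pESC-PGCLC and PGC. The mt-Cytb share of mitochondrial mRNAs was 25.2%, 27.2% and 43.7% in reads and 22.1%, 21.9% and 32.5% with nuclear copies added in ESC, pESC and ESC-PGCLC. Over the mRNAs with at most 50% of stretches shared it was 27.6%, 29.9%, 44.6%, 51.3% and 37.6% in the 5 groups.

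Correlations of same-numbered libraries were -0.094 to 0.347 over 9024 genes, the highest between pESC and PGC. Whether replicate numbers pair the libraries cannot be settled with 2 libraries a group. A replicate block called 0, 3, 8, 6, 3, 2 and 7 mRNAs and rRNAs and 0, 5, 13, 12, 8, 5 and 6 tRNAs in the order of comparisons above. The block passed 33 of 37 genes in the F test over groups against 35 without it. In pESC against ESC it called 78 of all genes, against 213 without it. The main limits are 2 libraries a group, TPM as a relative scale whose centring shifts the median of all genes by up to 0.74, the tRNAs' lengths, the nuclear copies, and origin that cannot be told apart from cell line.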
